A study of Mus musculus with 6 samples.

Results

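The genes described here are 45 heat shock chaperones of the cytosol and the mitochondria with their regulators and helpers, listed by gene name and role, with no threshold on a measured value, although earlier results of these data were known when the list was made. All 45 were found among the 23412 rows of the count table, and 44 of them had enough counts to be tested, Hspa1a being the exception. They comprised 2 heat shock factors, 29 cytosolic chaperones and cochaperones, 7 subunits of the chaperonin CCT and 7 mitochondrial chaperones. They were measured by RNA sequencing of whole liver from C57BL/6J mice labelled as 8 weeks of age, all of which had eaten a high-fat diet for 4 weeks. The labelled group HFD_Lira3d had then received liraglutide, a drug that activates the GLP-1 receptor, under the skin at 300 µg/kg for 3 days, and the group HFD_PBS3d had received phosphate-buffered saline (PBS). There were 3 libraries per group, with total counts between 20888991 and 27007182. Libraries are called Lira161, Lira162 and Lira164 or PBS155, PBS157 and PBS158 after their columns. Whether each library is a separate animal is not said in the labels, and p-values then reflect only how these libraries scatter, which may be technical. No group without the high-fat diet entered the comparison. Levels are read counts scaled to library size (CPM) with factors from the trimmed mean of M-values (TMM), and a gene is said to have risen or fallen where edgeR's quasi-likelihood test gave a Benjamini-Hochberg adjusted p below 0.05 over all 12626 genes tested.

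Heat shock chaperones bind unfolded or partly folded proteins and let them fold, or hand them on for degradation. HSP70 works in a cycle of ATP hydrolysis that J-domain proteins start and nucleotide exchange factors end, and it passes clients such as kinases and nuclear receptors to HSP90 through cochaperones. The ring-shaped chaperonin CCT folds actin and tubulin, and its mitochondrial counterpart, HSP60 with the lid HSP10, folds imported proteins. Transcription of many of these genes is raised by heat shock factor 1 (HSF1), which is held back by chaperones and, once freed by misfolded protein, binds heat shock elements in promoters as a trimer. In liver the same genes are also known to respond to feeding, body temperature and the daily rhythm.

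Because HSF1 acts through a defined sequence, promoters of the members were searched for the heat shock element, written as GAANNTTCNNGAA, which is 3 alternating units separated by 2 bases, or its reverse complement. The search covered RefSeq promoter windows of 300 bases (GRCm38.p6), from 250 bases before to 50 after each annotated start, on both strands, and overlapping matches were counted by their start positions. A window was found for 37 of the 45 members, and none was found for Hsf1, Hspa8, Hsp90aa1, Hsp90ab1, St13, Cct4, Hspa9 and Grpel2. With no mismatch in the 9 fixed letters, 5 members (13.5%) held the element, against 0.662% of all 27025 genes with a window and 0.603% of all 32851 windows. Allowing 1 mismatch, 17 members (45.9%) held it, against 8.15% of genes. The members had been chosen as known heat shock genes, so these shares describe the list and are no independent result. The stretches below show the element in members to which the results return, with the letters that match the element in capitals and its flanks in lower case.
Hspa1b (chr17:34959315-34959372, minus strand): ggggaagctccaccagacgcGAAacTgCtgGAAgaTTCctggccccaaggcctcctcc
Hspb1 (chr5:135887782-135887834, plus strand): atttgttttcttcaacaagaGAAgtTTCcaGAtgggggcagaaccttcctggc
Hsph1 (chr5:149636268-149636320, minus strand): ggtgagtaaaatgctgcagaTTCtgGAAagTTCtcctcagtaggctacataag
Ahsa1 (chr12:87266721-87266773, plus strand): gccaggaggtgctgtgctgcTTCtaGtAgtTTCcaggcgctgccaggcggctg
Chordc1 (chr9:18292243-18292305, plus strand): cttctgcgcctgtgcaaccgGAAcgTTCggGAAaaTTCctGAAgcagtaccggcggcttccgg
Dnajb6 (chr5:29735832-29735884, plus strand): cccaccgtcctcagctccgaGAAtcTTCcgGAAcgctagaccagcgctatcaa
Hspe1 (chr1:55088039-55088096, plus strand): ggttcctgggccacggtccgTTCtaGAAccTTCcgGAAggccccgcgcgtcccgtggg

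In Hsph1 the 3 units were complete and began 16 bases into the transcript of the start used here. Chordc1 had the longest run, with 3 overlapping matches across its start. Hspa1b and Hspb1 each had 1 letter off the element, beginning 114 and 117 bases before the start, and Ahsa1 had 1 letter off just inside the transcript. The stretch shown for Hspe1 also belongs to Hspd1, since these genes lie head to head and the same bases (55088059 to 55088076 on chromosome 1) were found in the window of either gene. Of the 11 members that rose (described next), 8 had a window, 1 held a complete element and 4 held it with at most 1 mismatch. Of the 33 tested members that did not pass, 28 had a window, 4 held a complete element and 12 held it with at most 1 mismatch. A complete element was thus present in members on either side of the threshold.

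After 3 days of liraglutide, a subset of cytosolic heat shock genes was higher than under PBS in whole liver. In such tissue, more cells of a type and more RNA per cell cannot be told apart. Hspb1 (HSP27), the inducible HSP70 gene Hspa1b, the inducible HSP90 gene Hsp90aa1 and the HSP110 gene Hsph1 were 3.23, 2.55, 1.79 and 1.77-fold higher. Among mitochondrial members Grpel2, a nucleotide exchange factor of mitochondrial HSP70, was 2.22-fold higher, while its paralog Grpel1 was at 1.15-fold and did not pass the test. In all, 11 of the 44 tested members rose (25.0%), where 4.08% of all genes tested rose. None fell in edgeR's test, in DESeq2's Wald test or in limma-voom, where 4.69% of all genes tested fell with edgeR. At an unadjusted p under 0.05, 17 members were higher and 1 (Dnajb4) was lower, against 1582 higher and 1648 lower of all 12626 genes tested. The median log2 fold change was 0.18 over the members and 0.011 over all genes tested. All 3 liraglutide libraries lay above all 3 PBS libraries for 20 members (45.5%), against 14.9% of all genes tested, and below them for 1 member (Dnajb6), against 16.4% of all genes tested. With DESeq2 13 members were higher, among them all of the 11, where 5.75% of all genes were higher. Higher members numbered 7 without Lira161 (6 of the 11, and Chordc1), 5 without Lira162, 9 without Lira164, 7 without PBS155, 10 without PBS157 and 6 without PBS158. The share of all genes that were higher was 1.62%, 1.27%, 5.42%, 3.82%, 2.23% and 1.4% in that order. Hspa1b, Hsph1, Hsp90aa1 and Grpel2 were called in each of these 6 fits.

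**Figure D1:**
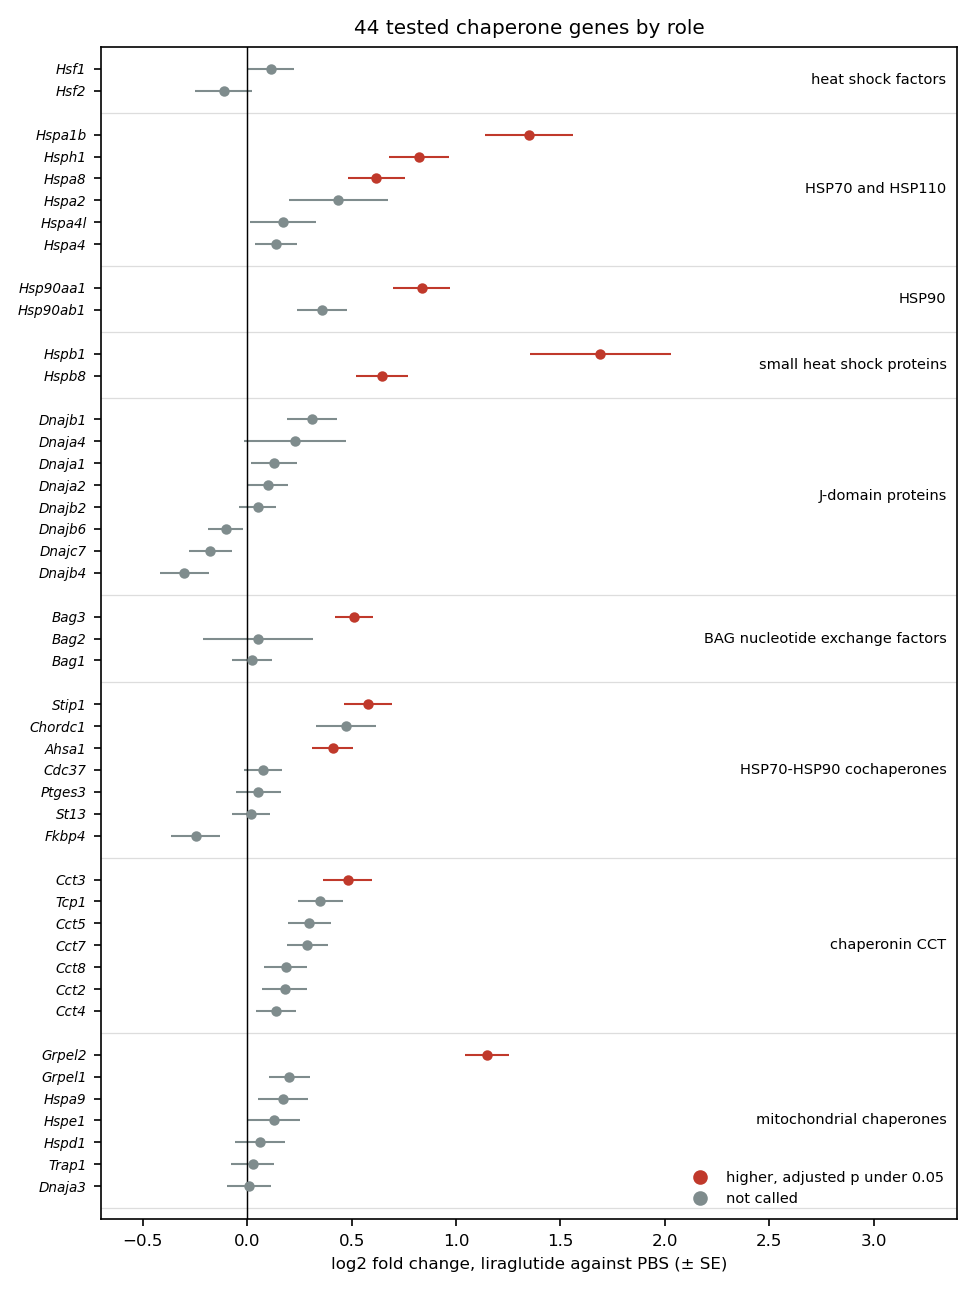
Log2 fold change of liraglutide against PBS (x axis) with its standard error for the 44 tested members (y axis), grouped by role, with members that rose in red and those not called in grey. The 11 members that rose lie in the HSP70, HSP90, small heat shock protein, BAG, cochaperone, CCT and mitochondrial groups. None of the 2 heat shock factors or 8 J-domain genes was called, where 4.08% of all genes tested rose and 4.69% fell.

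Neither heat shock factor passed the test at the transcript level. Hsf1, the main regulator of the response, was at 16.01, 16.2 and 17.1 CPM under liraglutide and 14.0, 16.5 and 15.0 CPM under PBS (log2 fold change 0.11 ± 0.11, SE, adjusted p = 0.561). Hsf2, a factor that can pair with HSF1, was at 27.2, 32.1 and 36.9 CPM under liraglutide and 29.6, 36.6 and 38.0 CPM under PBS (log2 fold change -0.11 ± 0.14, SE, adjusted p = 0.645). For either gene the groups overlapped, and neither passed at an unadjusted p under 0.05 or with DESeq2 or limma-voom. The activity of HSF1 is set on the protein and was not measured.

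Among the HSP70 and HSP110 genes, 3 of 6 tested members rose. Hspa1b (chromosome 17, 34956436 to 34959238, minus strand, GRCm38 as for all positions), which codes for stress-inducible HSP70, was at 13.4, 20.1 and 22.5 CPM under liraglutide and 8.79, 6.51 and 6.62 CPM under PBS (log2 fold change 1.35 ± 0.21, SE, adjusted p = 0.00837). Every liraglutide library was above every PBS library, with Lira161 the lowest of its group. Its near-identical copy Hspa1a (chromosome 17, 34969190 to 34972156, minus strand) had only 13, 8 and 6 counts under liraglutide and 9, 5 and 4 under PBS and was not tested. In the GENCODE M21 transcripts 58.8% of the 50-base words of Hspa1a also occur in Hspa1b, and 62.3% of those of Hspa1b in Hspa1a. The treatment of reads that fit both copies (not given in the sources used here) makes the division between them uncertain. With both rows summed the log2 fold change was 1.33 (edgeR adjusted p = 0.0075).

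Hspa8 (chromosome 9, 40800984 to 40810087, plus strand), the constitutive cytosolic HSP70, was far more abundant, at 1189.6, 1197 and 1078 CPM under liraglutide and 677, 891 and 691 CPM under PBS (log2 fold change 0.62 ± 0.14, SE, adjusted p = 0.026). PBS157 was the highest PBS library and still below the lowest liraglutide library. In the 6 fits Hspa8 was called only without Lira164 or without PBS157 (otherwise adjusted p up to 0.101), and 39.4% of its 50-base words occur in other annotated transcripts, mostly genes that are not rows of the table. Hsph1 (chromosome 5, 149614287 to 149636376, minus strand), an HSP110 that serves HSP70 as exchange factor, was at 75.1, 95.1 and 115 CPM under liraglutide and 52.5, 52.6 and 56.4 CPM under PBS (log2 fold change 0.82 ± 0.14, SE, adjusted p = 0.0115). Its PBS libraries lay close together, whereas its liraglutide libraries spread from Lira161 to Lira164. The other HSP110 genes Hspa4 (0.14 ± 0.10, edgeR adjusted p = 0.437) and Hspa4l (0.17 ± 0.16, 0.539) and the testis-enriched HSP70 gene Hspa2 (0.44 ± 0.24, 0.286), given as log2 fold changes ± SE, did not pass.

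Of the cytosolic HSP90 genes, Hsp90aa1 rose and Hsp90ab1 did not pass the test. Hsp90aa1 (chromosome 12, 110690605 to 110702728, minus strand), the stress-inducible isoform, was at 240.0, 252 and 266 CPM under liraglutide and 136, 170.4 and 119 CPM under PBS (log2 fold change 0.84 ± 0.14, SE, adjusted p = 0.00884). Hsp90ab1 (chromosome 17, 45567775 to 45573271, minus strand), the constitutive isoform, was at 1249, 1266 and 1140.3 CPM under liraglutide and 896, 1063 and 893 CPM under PBS (log2 fold change 0.36 ± 0.12, SE, adjusted p = 0.0995). The groups did not overlap for either gene, but Hsp90ab1 passed the test only with DESeq2 (adjusted p = 0.0304). Within a library, which removes any effect of scaling, the ratio of Hsp90aa1 to Hsp90ab1 counts was 0.192, 0.199 and 0.234 under liraglutide and 0.151, 0.160 and 0.133 under PBS. The log2 ratio was higher by 0.49 under liraglutide, in 3 of 3 libraries. The two-sided exact permutation p was 0.1, the smallest that 3 libraries against 3 allow. It was 0.1 after Benjamini-Hochberg adjustment over the 6 pairs compared here. The pair was chosen after its values were seen, so its separation and p are no independent support. Of the words of Hsp90aa1, 47.5% occur in other annotated transcripts, none of which is a row of the table.

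Both small heat shock proteins, which hold unfolding proteins without using ATP, rose. Hspb1 (chromosome 5, 135887919 to 135889563, plus strand) was at 30.6, 33.9 and 30.6 CPM under liraglutide and 6.96, 15.8 and 6.67 CPM under PBS (log2 fold change 1.69 ± 0.34, SE, adjusted p = 0.0313). Of its 50-base words 50.1% occur in other annotated transcripts that are not rows of the table. The liraglutide libraries nearly coincided, while PBS157 stood above the other PBS libraries by more than their own distance. Without PBS157 the log2 fold change was 2.21 (edgeR adjusted p = 0.000649), whereas the call was lost on leaving out any other library (adjusted p up to 0.115) and without the low-count filter (0.0753). Hspb8 (chromosome 5, 116408491 to 116422864, minus strand), which acts with BAG3 in selective autophagy, was at 254, 258 and 207 CPM under liraglutide and 137, 156 and 167 CPM under PBS (log2 fold change 0.65 ± 0.12, SE, adjusted p = 0.0154). It lost its call without Lira161 or Lira162 (adjusted p up to 0.065). Bag3 (chromosome 7, 128523616 to 128546981, plus strand), the partner that links HSPB8 to HSP70 and exchanges its nucleotide, was at 41.8, 45.3 and 40.5 CPM under liraglutide and 31.0, 28.6 and 29.8 CPM under PBS (log2 fold change 0.51 ± 0.091, SE, adjusted p = 0.0119), with narrow groups that did not overlap, and was not called without Lira162 (0.0565). The other BAG genes did not pass: Bag1 was at 79.5 ± 5.73 against 78.2 ± 5.16 CPM (mean ± SD, n = 3 per group, edgeR adjusted p = 0.908) and Bag2 at 2.00 ± 0.105 against 1.93 ± 0.491 CPM (0.93).

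**Figure D2:**
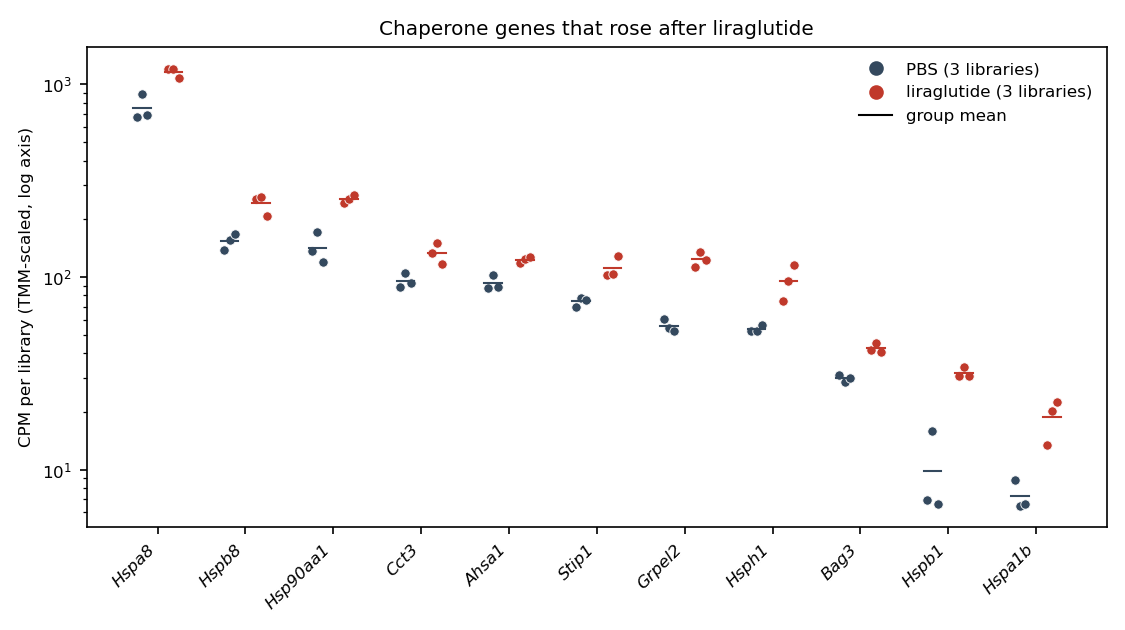
TMM-scaled CPM on a log axis in each PBS library (dark) and each liraglutide library (red) for the 11 members that rose, with group means as lines. In each gene every liraglutide point lies above every PBS point, and Hspb1 has a PBS point, PBS157, at 15.8 CPM apart from the other PBS points.

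J-domain proteins, which recruit clients and start the HSP70 cycle, gave no calls: none of 8 passed with edgeR, DESeq2 or limma-voom. Of all genes tested, 4.08% rose and 4.69% fell with edgeR, and 8 genes are too few to differ from that by having no call. At an unadjusted p under 0.05, 1 was higher (Dnajb1) and 1 lower (Dnajb4), against 1582 higher and 1648 lower of all 12626 genes tested. Dnajb1 (HSP40), a heat-inducible member, was at 30.1, 29.1 and 35.4 CPM under liraglutide and 25.8, 22.6 and 27.98 CPM under PBS (log2 fold change 0.31 ± 0.12, SE, adjusted p = 0.137), with groups that lay apart by little. Dnajb4 was at 39.1, 42.6 and 48.1 CPM under liraglutide and 56.5, 46.5 and 57.1 CPM under PBS (log2 fold change -0.30 ± 0.12, SE, adjusted p = 0.141), with Lira164 inside the range of the PBS libraries. Dnajb6, a suppressor of protein aggregation, was at 38.6, 39.3 and 38.8 CPM under liraglutide and 39.8, 42.9 and 42.9 CPM under PBS, and here all liraglutide libraries were below all PBS libraries although the difference was small (log2 fold change -0.10 ± 0.085, SE, adjusted p = 0.478). Log2 fold changes of Dnaja1, Dnaja2, Dnaja4, Dnajb2 and Dnajc7 lay between -0.18 and 0.23, with edgeR adjusted p between 0.317 and 0.759. Exons of Dnaja4 overlap those of Wdr61 on the opposite strand by 1581 bp, and without a stated strand setting its counts are uncertain.

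Of the 7 cochaperones that link HSP70 to HSP90 or regulate HSP90, 2 rose. Stip1 (chromosome 19, 7020702 to 7039967, minus strand), also called HOP, the adaptor that holds both chaperones, was at 102, 103 and 129 CPM under liraglutide and 69.9, 77.8 and 75.6 CPM under PBS (log2 fold change 0.58 ± 0.11, SE, adjusted p = 0.0169). Ahsa1 (chromosome 12, 87266479 to 87273998, plus strand), an activator of the HSP90 ATPase, was at 118, 124 and 127 CPM under liraglutide and 87.4, 102 and 88.0 CPM under PBS (log2 fold change 0.41 ± 0.10, SE, adjusted p = 0.0337). The groups did not overlap for either gene. Stip1 lost its call without PBS158 (adjusted p = 0.0589), and Ahsa1 kept its call only without PBS157 among the 6 fits (otherwise up to 0.124). Chordc1 (morgana), whose promoter carried the longest run of the element, was at 39.1, 52.8 and 59.1 CPM under liraglutide and 33.9, 36.4 and 38.5 CPM under PBS (log2 fold change 0.47 ± 0.15, SE, adjusted p = 0.0767). Its lowest liraglutide value, Lira161, was just above the highest PBS value, and Chordc1 was called without Lira161 (adjusted p = 0.0288). Fkbp4 (FKBP52), an HSP90 partner of steroid receptors, was at 131, 131 and 168 CPM under liraglutide and 176, 166 and 169 CPM under PBS (log2 fold change -0.25 ± 0.12, SE, adjusted p = 0.225), with overlapping groups, and it was called lower on leaving out Lira164, its highest liraglutide library (-0.39, adjusted p = 0.0448). The HSP70 cochaperone St13 (HIP), the p23 gene Ptges3 and the kinase adaptor Cdc37 had log2 fold changes between 0.016 and 0.076 and did not pass (adjusted p between 0.642 and 0.937).

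All 7 CCT subunits tested had positive log2 fold changes, 0.14 to 0.48 with a median of 0.29. Over all 12626 genes tested, 6514 were positive and the median was 0.011. Of the 7 subunits 1 passed (14.3%, against 4.08% of all genes tested). Cct3 (chromosome 3, 88297116 to 88321767, plus strand), a subunit of the ring, was at 132, 149 and 117 CPM under liraglutide and 88.4, 105 and 92.4 CPM under PBS (log2 fold change 0.48 ± 0.12, SE, adjusted p = 0.0356). Lira164 was its lowest liraglutide library, and among the 6 fits it kept its call only without that library (adjusted p up to 0.14 otherwise). The groups also did not overlap for Cct5 (0.30 ± 0.10), Cct7 (0.29 ± 0.10), Cct8 (0.18 ± 0.10) and Tcp1 (0.35 ± 0.11), with edgeR adjusted p between 0.0767 and 0.303, and Tcp1 passed with DESeq2 (0.0486) and with library totals as the scaling (0.0446). Cct2 (0.18 ± 0.11) and Cct4 (0.14 ± 0.10) overlapped between groups. All liraglutide libraries thus lay above all PBS libraries for 5 of the 7 subunits (71.4%, against 14.9% of all genes tested). Per kilobase of exon, the level of the subunits under PBS lay between 13.7 (Cct7) and 49.4 (Cct2) CPM per kb. Another ring subunit, Cct6a, was listed among the other pathway genes and rose (106, 126 and 107 CPM under liraglutide and 78.5, 82.3 and 84.0 CPM under PBS; log2 fold change 0.47 ± 0.10, SE, adjusted p = 0.0207); in the 6 fits it was called only without Lira161 or without Lira164 (otherwise up to 0.0895). Exons of Tcp1 overlap those of Acat3 by 571 bp on the opposite strand, which makes its counts uncertain too.

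**Figure D3:**
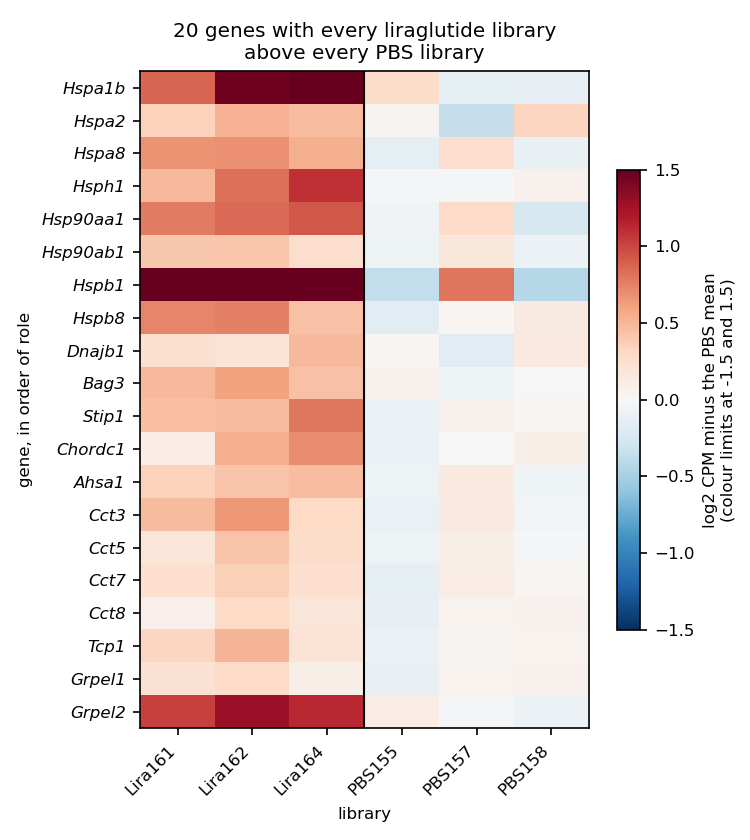
Difference in log2 CPM from the PBS group mean (colour, red higher and blue lower) in the 6 libraries (x axis) for the 20 members (y axis) whose liraglutide libraries all lay above all PBS libraries. Hspa1b, Hspb1 and Grpel2 are the darkest rows, and PBS157 is the PBS library with the highest Hspb1.

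Mitochondrial chaperones gave 1 call among 7 (14.3%, against 4.08% of all genes tested). Grpel2 (chromosome 18, 61712424 to 61726325, minus strand) was at 113, 135 and 122 CPM under liraglutide and 60.1, 54.2 and 52.3 CPM under PBS (log2 fold change 1.15 ± 0.10, SE, adjusted p = 0.00244). It ranked number 6 by p among the 12626 genes tested, and its adjusted p stayed between 0.000703 and 0.0119 when each library was left out in turn. Grpel1, the constitutive paralog, was at 152, 158.4 and 138 CPM under liraglutide and 120.1, 134 and 136 CPM under PBS (log2 fold change 0.20 ± 0.10, SE, adjusted p = 0.243). The count ratio of Grpel2 to Grpel1 within a library was 0.740, 0.851 and 0.881 under liraglutide and 0.5005, 0.404 and 0.385 under PBS. On the log2 scale the ratio was higher by 0.95 in 3 of 3 libraries (exact permutation p = 0.1, adjusted 0.1). The pair was also chosen after its values were seen, so its separation and p are no independent support. Exons of Grpel1 overlap those of Tada2b on the opposite strand by 411 bp.

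The mitochondrial HSP60 gene Hspd1 was at 528, 609 and 568 CPM under liraglutide and 489, 598 and 549 CPM under PBS (log2 fold change 0.06 ± 0.12, SE, adjusted p = 0.788). Its lid Hspe1 (HSP10), transcribed from the shared promoter, was at 129, 129.5 and 133 CPM under liraglutide and 102, 141 and 114 CPM under PBS (log2 fold change 0.13 ± 0.12, SE, adjusted p = 0.555). In both genes PBS155 was the lowest of the 6 libraries and the groups overlapped, and 42.1% of the words of Hspd1 occur in other annotated transcripts. Hspa9 (mortalin), the mitochondrial HSP70 on which GRPEL1 and GRPEL2 act, was at 577, 709 and 643 CPM under liraglutide and 534, 575 and 603 CPM under PBS (log2 fold change 0.17 ± 0.12, SE, adjusted p = 0.401). The mitochondrial HSP90 gene Trap1 (0.025 ± 0.10) and the J-domain gene Dnaja3 (0.0083 ± 0.11) were the mitochondrial members nearest to no difference, with edgeR adjusted p of 0.905 and 0.973. Of 26 further genes of mitochondrial import, folding and proteolysis, 1 passed, a share of 3.85% against 4.08% of all genes tested. It was Tomm20, a receptor of the import pore (log2 fold change 0.39 ± 0.10, SE, adjusted p = 0.0484). Tomm20 lost its call with upper quartile factors, without the 10 most abundant genes and on leaving out any library but Lira164 (adjusted p up to 0.152).

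Expressed per kilobase of exon, so that genes can be compared, Hsp90ab1 had the highest level of the members under PBS at 317 CPM per kb, followed by Hspd1 at 206, Hspa8 at 175 and Hspa9 at 132. Under liraglutide the level per kb was 406 for Hsp90ab1, 215 for Hspd1 and 269 for Hspa8. The genes with the largest fold changes were of modest level per kb: Hspb1 was at 9.52 under PBS and 30.7 under liraglutide, Grpel2 at 8.22 and 18.2, and Hspa1b at 2.61 and 6.66. Exon length is the union over annotated transcripts, which lowers the level of genes with many long isoforms.

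The other genes of the pathway, 105 tested in lists that hold no member, gave 3 calls higher (Cct6a, Tomm20 and Zfand2a) and none lower with edgeR, a share of 2.86% against 4.08% of all genes tested. At an unadjusted p under 0.05, 12 of the 105 were higher and 3 lower, against 1582 and 1648 of all 12626 genes tested. DESeq2 called 5 higher and 1 lower (766 and 855 over all genes), and limma-voom 3 and 0 (513 and 623). The median log2 fold change of the 105 genes was 0.052. Zfand2a (AIRAP), a heat- and arsenite-inducible proteasome partner, was at 24.7, 22.2 and 17.0 CPM under liraglutide and 14.2, 13.3 and 12.9 CPM under PBS (log2 fold change 0.66 ± 0.14, SE, adjusted p = 0.0245), and it was not called without Lira161, Lira162, PBS157 or PBS158 (adjusted p up to 0.0881). In edgeR or limma-voom no call came from 8 other HSP70, HSP110 and exchange factor genes or 3 other small heat shock proteins. None came from 16 other J-domain genes or 20 other HSP90 cochaperones either. At an unadjusted p under 0.05 these lists had 2, 1, 0 and 3 higher and 0, 0, 1 and 1 lower members, and DESeq2 called 1 higher and 1 lower, both among the HSP90 cochaperones. The cold-inducible RNA-binding protein genes Cirbp and Rbm3 were at log2 fold changes of 0.0029 ± 0.25 and 0.36 ± 0.20 (edgeR adjusted p = 0.997 and 0.313).

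Chaperones of the endoplasmic reticulum (ER), which the unfolded protein response controls, were set beside these genes as a neighbouring list. Of 24 tested ER chaperone and degradation genes 8 fell with edgeR (33.3%, against 4.69% of all genes tested), 11 with DESeq2 and 9 with limma-voom, and 13 were lower at an unadjusted p under 0.05. None was higher by any of these. Over all genes, 855 were lower with DESeq2, 623 with limma-voom and 1648 at an unadjusted p under 0.05. The median log2 fold change was -0.35, against 0.20 for the 28 cytosolic chaperones and cochaperones, 0.29 for CCT and 0.13 for the mitochondrial chaperones. The disulfide isomerase genes Pdia4 (-0.62 ± 0.11) and Pdia6 (-0.73 ± 0.15) and the HSP70 partners Dnajb11 (-0.46 ± 0.10) and Sdf2l1 (-1.31 ± 0.26) fell, with edgeR adjusted p between 0.0108 and 0.022. The count of 8 was 0 without Lira161, 1 without Lira162, 11 without Lira164, 6 without PBS155, 2 without PBS157 and 2 without PBS158. All genes called lower numbered 255, 231, 802, 476, 369 and 234 in the same order, against 592 in the main fit. Pdia4 lost its call only without Lira161 (adjusted p = 0.0508), Pdia6 without Lira161, Lira162 or PBS158, Dnajb11 without Lira161, Lira162, PBS157 or PBS158 and Sdf2l1 without Lira161, Lira162, PBS155 or PBS157 (up to 0.0933).

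Ratios within a library compared cytosolic members with their relatives in other compartments. The ratio of Hsp90aa1 to Hsp90b1, the ER HSP90, was 0.328, 0.341 and 0.334 under liraglutide and 0.133, 0.164 and 0.127 under PBS. That of Hspa8 to Hspa5 (BiP), the ER HSP70, was 2.41, 2.08 and 1.71 under liraglutide and 1.03, 1.28 and 0.874 under PBS. Hsp90aa1 relative to the mitochondrial Trap1 was 1.76, 1.56 and 1.66 under liraglutide and 0.928, 1.17 and 0.749 under PBS, and Hspa8 relative to the mitochondrial Hspa9 was 2.06, 1.69 and 1.68 under liraglutide and 1.27, 1.55 and 1.14 under PBS. In all 4 the liraglutide libraries lay above the PBS libraries, by 1.25, 0.96, 0.83 and 0.46 on the log2 scale in that order, each with the smallest exact permutation p of 0.1 (adjusted 0.1). The pairs were chosen after the values were seen, so their separation and p-values are no independent support.

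**Figure D4:**
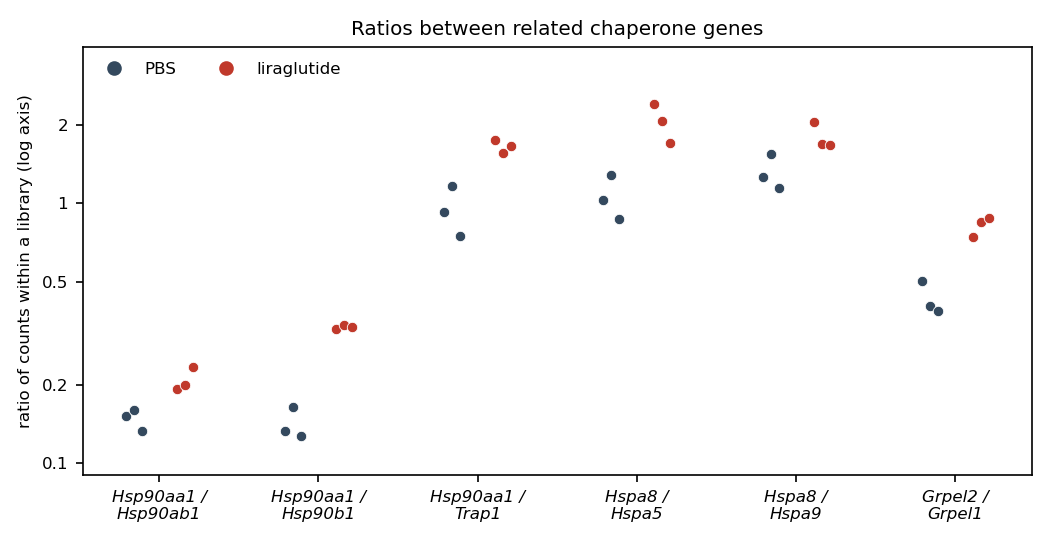
Ratio of the counts of related chaperone genes within each library (y axis, log scale) for 6 pairs (x axis), PBS dark and liraglutide red. In each pair the 3 liraglutide libraries lie above the 3 PBS libraries, most widely for Hsp90aa1 over Hsp90b1, at a mean of 0.334 against 0.141.

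Among 31 subunits of the constitutive proteasome, which degrades proteins that chaperones cannot fold, 1 rose with edgeR (Psmd3, log2 fold change 0.49 ± 0.11, SE, adjusted p = 0.0271), a share of 3.23% against 4.08% of all genes tested. DESeq2 called 4 higher, limma-voom 1, and 10 were higher at an unadjusted p under 0.05, while none was lower by any of these. Over all genes, the unadjusted p gave 1582 higher and 1648 lower of 12626, DESeq2 766 and 855, and limma-voom 513 and 623. The log2 fold change was positive for 30 of the 31 subunits, with a median of 0.24, against 6514 of all 12626 genes tested and a median of 0.011. Psmd3 kept its call only without Lira164 among the 6 fits (otherwise adjusted p up to 0.112). Of 16 tested genes of the integrated stress response 2 rose with edgeR (12.5%, against 4.08% of all genes tested), the secreted hormones Gdf15 (3.09 ± 0.39) and Fgf21 (3.10 ± 0.27), and none fell. Limma-voom gave 2 higher and 0 lower, DESeq2 4 and 1, and an unadjusted p under 0.05 8 and 1. The median log2 fold change was 0.48. All liraglutide libraries lay above all PBS libraries for 6 of the 16 genes (37.5%, against 14.9% of all genes tested).

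**Figure D5:**
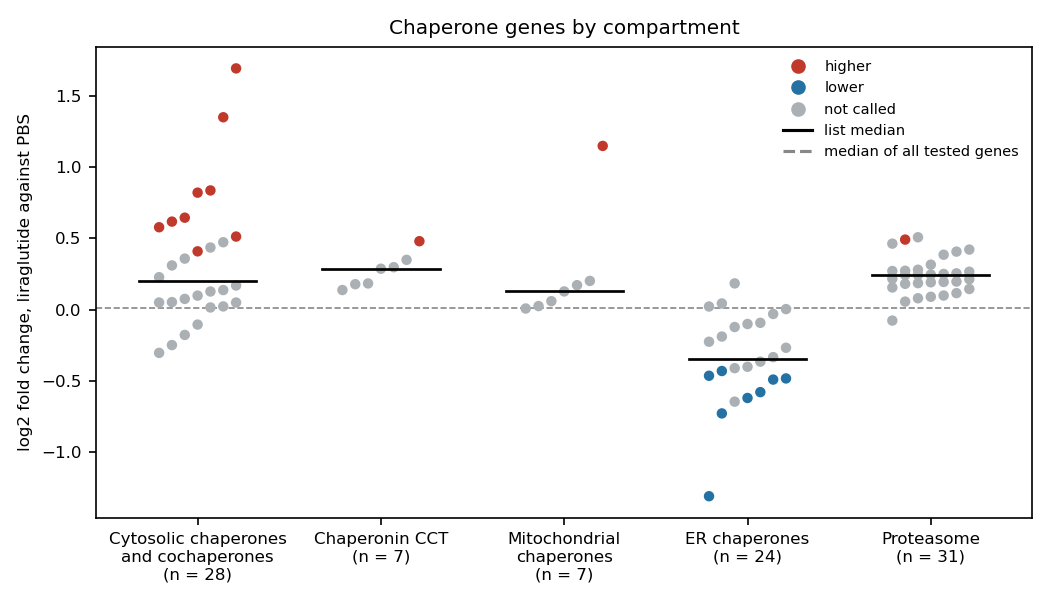
Log2 fold change (y axis) of each tested gene in the cytosolic, CCT, mitochondrial, ER and proteasome lists (x axis), coloured by call, with the list median as a black line and the median of all genes tested as a dashed line. ER chaperones hold the 8 lower calls in blue, and the cytosolic list holds 9 of the 11 members that rose.

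The labelled tissue was checked against markers of liver cells. The 10 hepatocyte markers summed to 100211 to 116425 CPM under liraglutide and 115884 to 136424 CPM under PBS, and among them Hnf4a rose and Serpina1c fell. The 8 endothelial markers all had positive log2 fold changes (0.51 to 0.86), of which 1 (Clec4g) passed, and summed to 224 to 349 CPM under liraglutide and 132 to 248 CPM under PBS, so that the groups overlapped through PBS155. Macrophage markers (226 to 363 CPM under liraglutide and 101 to 425 CPM under PBS) and stellate cell and fibroblast markers (302 to 357 CPM under liraglutide and 189 to 321 CPM under PBS) overlapped as well, with no marker called. Smooth muscle markers summed to 9.07 to 13.1 CPM under liraglutide and 8.64 to 10.4 CPM under PBS, and the skeletal muscle genes Ckm, Myh4 and Myl1 had 0 counts in all 6 libraries. Erythroid markers summed lower (42.9 to 100.4 CPM under liraglutide and 152 to 165 CPM under PBS), and Alas2 passed. Hba-a1 and Hbb-b1 were at 0 in each library, but the beta-globin row Hbb-bs was at 18.2 to 60.4 CPM under liraglutide and 66.3 to 87.5 CPM under PBS. Cholangiocyte markers summed lower (26.6 to 28.6 CPM under liraglutide and 42.0 to 50.9 CPM under PBS), mostly through Spp1, which passed (20.5 against 36.3 CPM). Sox9 was lower without overlap (edgeR adjusted p = 0.148). Krt19, Krt7 and Epcam overlapped between groups (0.565 to 0.62). The tested adipocyte markers went in opposite directions: Fabp4 rose (14.9 against 5.48 CPM, edgeR adjusted p = 0.0438) and made up most of the sum (8.997 to 22.8 CPM under liraglutide and 6.34 to 6.96 CPM under PBS), whereas Cfd was at 0.210 against 1.18 CPM (0.0544), called lower with DESeq2, and Adipoq, Plin1 and Lep were under 1 CPM in each library. T and natural killer cell markers summed to 2.51 to 2.93 CPM under liraglutide and 0.960 to 1.58 CPM under PBS, without overlap and with no marker called, and B cell (2.83 to 4.17 CPM under liraglutide and 2.83 to 4.69 CPM under PBS) and neutrophil markers (2.16 to 2.99 CPM under liraglutide and 1.49 to 3.70 CPM under PBS) were low too and overlapped. The part of these cells in the chaperone differences was not tested.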

How the data were processed

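The authors deposited raw read counts per gene, whole numbers without normalization, for 23412 symbols in 6 libraries. Per the submitters' processing notes STAR and the build mm10 were used; counting tool, annotation, strand setting and versions: not given in the sources used here. Column names give the group but none of the labels' triplicate numbers, so columns were mapped to groups only. Within groups, pairs of libraries differed by a chi-square per degree of freedom of 31.0 to 61.3, so none was the same library sequenced again. These values cannot tell whether libraries came from separate animals.

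Genes were kept by filterByExpr (12626 of 16949 with a count), scaled by TMM and fitted over all genes with edgeR 4.0.16 in R 4.3.3 (estimateDisp, robust glmQLFit, glmQLFTest; group as the only term; two-sided; Benjamini-Hochberg over all genes, threshold 0.05). The SE is the log2 fold change over the square root of F; the common biological coefficient of variation was 0.157. Levels of lists used log2 CPM with a prior count of 2. Positions, exon lengths and 50-base words came from GENCODE M21 (GRCm38, the assembly of mm10), promoter windows from RefSeq. The procedure was tested on simulated data. The alternatives tried were library totals, upper quartile factors and DESeq2 size factors in edgeR, no low-count filter, a mean CPM of at least 5, the DESeq2 1.42.0 Wald test, limma-voom (limma 3.58.1), removal of the 10 most abundant genes, Hspa1a and Hspa1b summed, and each library left out. Members and lists were chosen with earlier results of these data known. Values in every library are given for called members, heat shock factors, Hspa1a, Hspa1b, Hspa8, both cytosolic HSP90 genes, Hspd1, Hspe1 and the 2 members of smallest p of a role without calls; Hspa9, Dnajb6, Grpel1, Chordc1, Fkbp4, Cirbp, Rbm3 and the gene pairs were added after their values were seen. Named from other lists were up to 6 called pathway genes and 4 called genes of smallest p. Figures used matplotlib 3.10.9.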

Additional observations from a re-analysis of the deposited data

How the results depend on the processing

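No paired analysis was possible because the columns carry none of the labels' triplicate numbers. Higher members, 11 in the main fit, numbered between 10 and 13 over the settings that kept all libraries. In those settings 3.44% to 5.75% of all genes were higher. Each of the 11 kept its direction and its call there, apart from Hspb1 without the low-count filter. With a library left out, higher members numbered between 5 and 10, where 1.27% to 5.42% of all genes were higher. Lower members numbered between 0 and 1 with a library left out, where 231 to 802 of all genes were lower. With a library left out, the other pathway genes numbered between 0 and 5 higher and 0 and 1 lower, lower ER chaperones between 0 and 11, integrated stress response genes between 2 and 4 higher and 0 and 1 lower, and higher proteasome subunits between 0 and 6. With DESeq2 these were 5 and 1 other pathway genes higher and lower (against 3 and 0), 4 and 1 integrated stress response genes (2 and 0), 4 higher proteasome subunits (1) and 11 lower ER chaperones (8). Library totals gave 7 higher other pathway genes and 2 proteasome subunits; 1 other pathway gene was lower with no low-count filter and 1 after removal of the 10 most abundant genes, and 1 integrated stress response gene was lower at a mean CPM of 5. Over all genes, DESeq2 called 766 higher and 855 lower of 13330, and library totals 609 and 456 of 12626. The main fit called 515 and 592 of 12626. Genes called lower numbered 618 of 16949 with no low-count filter and 634 of 12598 without the 10 most abundant genes. At a mean CPM of 5 they numbered 512 of 9262. The cause of the shifts in these lists was not tested. Library totals raised the share of higher genes among all calls from 46.5% to 57.2%. The promoter element was in 5 members with no mismatch and 17 with at most 1, a looser rule that must find at least as many. With 3 libraries per group, members of a few CPM such as Bag2, Hspa2 and Dnaja4 had standard errors of 0.26, 0.24 and 0.24 on the log2 scale. Larger differences than that also went without a call, such as 0.44 for Hspa2.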
